A study of Mus musculus with 4 samples.

Results

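In mouse embryonic stem cells, 52 windows of 1 kb were dense in CpG sites, lay at the start or end of a protein-coding gene and nevertheless carried a methylation level of 50% or higher. They were chosen by 4 conditions: at least 40 CpG positions listed in any library, at least 10 reads in each library, a mean level of the 4 libraries of at least 50%, and a distance of at most 1 kb to a start or end of a RefSeq protein-coding gene of mm10 (autosomes and X). The 52 windows are 0.375% of the 13852 CpG-dense windows at gene ends and come from 1741176 windows tested in all. The mean level itself chose the members, so its height is a description.

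Methylation was measured by whole-genome bisulfite sequencing of sorted mouse embryonic stem cells with 2 libraries per group. All cells carried floxed Ogt alleles (Ogt fl/fl) and grew on feeder fibroblasts, which were removed by sorting. The Ogt iKO group received 4-hydroxytamoxifen (4-OHT) for 6 days, which induces the knockout, and the control group was cultured without it. Selection for YFP fluorescence was applied to the treated cells alone, so loss of Ogt, the drug and that selection cannot be told apart. The counts carry no measure of OGT, and the knockout was not checked here. Labels do not say whether the libraries of a group came from separate cultures, so p-values concern these libraries alone. Those of the window model rest largely on the spread between libraries over all windows, not on that of the single window. The tables held 64273609 to 79929994 reads over CpGs per library, a mean of 3.36 to 4.05 reads per CpG of the autosomes and X. Pooled over the genome, methylation reached 65.5% and 63.3% for Ogt iKO (replicates 1, 2) and 70.3% and 73.8% for control.

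CpG-dense stretches at gene starts, called CpG islands, are usually free of methylation in mammalian cells. Islands that do carry methylation include imprinting control regions, promoters of germline genes in cells outside the germline, and islands inside or behind genes. OGT attaches N-acetylglucosamine to nuclear and cytosolic proteins and binds the TET enzymes, which oxidise 5-methylcytosine. Neither 5-methylcytosine nor 5-hydroxymethylcytosine is converted by bisulfite, and a level here counts both marks together.

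For each of the 4 member windows that overlap a RefSeq promoter, the coding gene's promoter is shown, since there the window reaches a transcription start. They run 5′ to 3′ on the gene's strand, from 250 bases before to 50 after the start, with each CpG in capitals, and come from RefSeq on GRCm38.p6, the assembly of mm10. In genome order they are chr8:105979370-105979669 (minus strand, Dpep3), chr10:13090582-13090881 (plus, Plagl1), chr13:119488223-119488522 (plus, Tmem267) and chrX:53757782-53758081 (minus, 1700013H16Rik).
Dpep3: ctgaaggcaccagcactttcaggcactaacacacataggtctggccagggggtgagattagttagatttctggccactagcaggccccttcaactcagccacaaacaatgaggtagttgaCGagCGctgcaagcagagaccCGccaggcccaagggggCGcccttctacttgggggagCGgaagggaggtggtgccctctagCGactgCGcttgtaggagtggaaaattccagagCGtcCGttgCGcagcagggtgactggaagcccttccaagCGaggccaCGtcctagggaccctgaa
Plagl1: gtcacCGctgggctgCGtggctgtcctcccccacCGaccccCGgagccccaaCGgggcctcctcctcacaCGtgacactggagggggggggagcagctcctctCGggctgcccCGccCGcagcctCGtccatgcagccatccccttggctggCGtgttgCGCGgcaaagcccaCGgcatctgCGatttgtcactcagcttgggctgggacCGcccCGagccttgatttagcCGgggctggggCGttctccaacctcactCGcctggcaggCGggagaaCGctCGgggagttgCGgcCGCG
Tmem267: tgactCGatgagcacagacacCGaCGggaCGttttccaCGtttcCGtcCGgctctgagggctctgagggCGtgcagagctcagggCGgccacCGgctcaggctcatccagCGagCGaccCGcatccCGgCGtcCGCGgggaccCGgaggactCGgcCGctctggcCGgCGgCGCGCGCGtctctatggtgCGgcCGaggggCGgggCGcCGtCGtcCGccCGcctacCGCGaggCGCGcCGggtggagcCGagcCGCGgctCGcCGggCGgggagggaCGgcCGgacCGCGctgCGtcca
1700013H16Rik: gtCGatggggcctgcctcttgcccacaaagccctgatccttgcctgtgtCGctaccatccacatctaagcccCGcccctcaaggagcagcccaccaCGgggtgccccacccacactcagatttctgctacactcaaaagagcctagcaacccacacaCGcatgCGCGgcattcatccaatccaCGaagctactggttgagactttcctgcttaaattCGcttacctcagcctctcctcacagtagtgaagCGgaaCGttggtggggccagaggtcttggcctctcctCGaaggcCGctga

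The Tmem267 promoter shown, 1 of 2 listed for the gene, holds 50 CpGs in its 300 bases and the Plagl1 promoter 26. The median over all RefSeq promoters is 7, whereas Dpep3 holds 12 and 1700013H16Rik 13. Short motifs were searched on both strands in 7 promoters that overlap the members, which include the noncoding genes Hymai and 3110070M22Rik and the other start of Tmem267. CACGTG, the E-box, occurred in 2 of them and in 7.15% of all 32851 promoters. TCCCGC, an E2F-type sequence, occurred in 2 and in 20% of all promoters. TGCCGC, the core bound by the imprint-protecting factor ZFP57, occurred in 3 and in 11.6%. Each motif contains a CpG, and the Plagl1 promoter, which shares most of its bases with that of Hymai, holds all 3.

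Plagl1 encodes a zinc finger transcription factor expressed from the paternal allele, and its promoter island is a maternal imprinting mark. In this promoter the level was 4.35% in iKO replicate 1 and 56.1% in iKO replicate 2, on 23 and 41 reads. The controls stood at 64.1% and 94.3% on 39 and 35 reads. Both iKO values lay below both controls, but the gap between the iKO libraries was wider than the gap between the groups. Over the whole member window (chr10:13090001-13091000, 60 CpGs) the groups overlapped, with 34.7% and 56.8% in iKO against 49.6% and 88.8% in control.

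Dpep3, a membrane dipeptidase of the testis, had promoter levels of 26.7% and 54.8% in iKO against 60.6% and 78.1% in control, on 15 to 42 reads. Both iKO values lay below both controls, and the iKO libraries were nearly as far apart as the group means. At Tmem267, which encodes a transmembrane protein, the promoter shown stood at 68.5% and 42.5% in iKO and 61.6% and 36.4% in control, on 200 to 381 reads. Replicate 1 was the high library in each group there, and the groups overlapped. The gene's other start (chr13:119487836-119488135, 22 CpGs, not shown) lies upstream and is the gene start used to choose the member. Levels there were 0% and 16.7% in iKO and 0% and 5.88% in control, on 15 to 51 reads. At 1700013H16Rik, control replicate 1 had 2 reads in the promoter, too few for a level.

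More members lay near the end of a gene than near a transcription start. Of the 52 windows, 12 were near a start, 23 near an end, 4 near both and 13 near a gene whose strand the promoter table did not give. The last class was kept apart also where another gene nearby had a strand. Among CpG-dense windows near an end, 23 of 412 (5.58%) reached a mean level of 50%, against 12 of 9632 (0.125%) near a start. Windows near both gave 4 of 692 (0.578%). The median level of all CpG-dense windows was 6.67% near ends and 1.18% near starts. Of the 52 windows, 38 lay wholly inside a protein-coding gene and 13 held the start or end itself.

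CpG density was close to its limit in most members, with 40 to 113 CpGs and a median of 44, and in 37 members both flanking windows held fewer than 40. Mean levels ran from 50.0% to 90.2% with a median of 62.1%, and 34 members stayed under 70%. Just inside the 50% limit were windows at Actl7b (50.0%), Duxf3 (50.4%) and Csnk1g2 (51.1%). Just outside were Syce3 (49.0%), Tcf3 (49.2%) and Trim52 (49.3%).

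Where a level could be given, the promoters of the members' own genes were mostly unmethylated. Of the members' 54 genes, many are not covered. Some had no promoter listed, and others had too few reads, mostly at promoters with few CpGs, such as Pdha2 and Actl7b with 4 each. Of 26 genes whose promoters did not overlap a member and had at least 10 reads in each library, 24 had a mean level under 20%, with a median of 0.837%. For 20 of these genes the member belonged to the class near an end alone, and 19 of the 20 promoters were under 20%. Tubb3, which encodes a neuronal beta-tubulin, had 0.175% at its promoter and 72.4% in the window at its end. Wfs1, a membrane protein of the endoplasmic reticulum, had 0.245% and 85.6%. Gtf2ird2, a member of the TFII-I family, had 0% and 63.1%. Exceptions were Lypd3, with 40.2%, and Duxf3, with 72.3% on 18 to 23 reads at 3 CpGs.

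**Figure D1:**
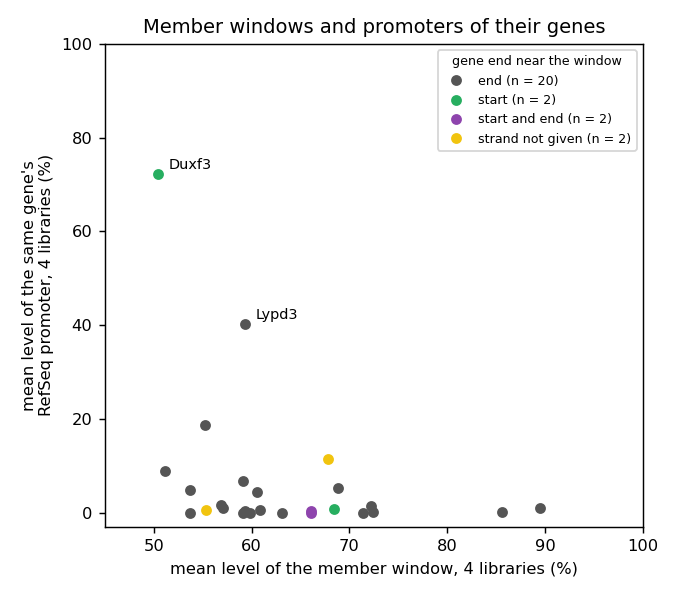
Mean methylation level of each gene's RefSeq promoter (y axis, %) against that of its member window (x axis, %), both over the 4 libraries, for 26 genes whose promoter does not overlap a member. 24 promoters lie under 20%, while Lypd3 and Duxf3 stand at 40.2% and 72.3%.

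Ogt iKO cells had lower methylation than control cells over these windows. For Ogt iKO replicate 1 the mean over the 52 windows came to 62.7%, and for replicate 2 to 55.3%. For control replicate 1 it came to 69.0%, and for replicate 2 to 75.8%. Both iKO libraries were below both controls. Group means were 59.0% ± 5.24 (SD, n = 2) and 72.4% ± 4.82 (SD, n = 2), a difference of -13.4 points with a pooled SD of 5.03. The control mean was at least 50% in each member, while 16 members had an iKO mean under 50% and entered through the control libraries. Over the 36 members with both group means at 50% or higher the difference was -10.4. The two-sided exact permutation test gave p = 0.333, the smallest value that 2 against 2 libraries allow.

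The difference was negative in 50 of 52 members (96.2%), against 79.4% of all windows tested and 86.0% of methylated windows of 10 to 39 CpGs at gene ends. These sets differ in depth, with medians of the mean reads per library of 108, 30.8 and 47.8 in the same order. In the 16 members with an iKO mean under 50% the negative sign was fixed by the choice of members. They reached the mean level of 50% through the control libraries. Among dense methylated windows away from gene ends, with a median of 95.8 reads, the negative share was 79.2%. The share of negative differences was not taken at matched depth. The size of the difference varied widely in members, with a median of -11.8 points and a range of -54.7 to 5.73. The same median over all windows tested was -7.81. In 32 members both iKO libraries were below both controls, in 1 both were above, and 19 overlapped. Part of the 32 entered through the control libraries, so their count is not independent of the choice of members. Over all windows tested the share with both iKO libraries below both controls was 40.5%, and the share above was 4.21%. The share below was 40.6% among windows at a mean level of 50% or higher, 45.5% among dense methylated windows away from gene ends and 49.9% among methylated windows of 10 to 39 CpGs at gene ends. Depth matters for this share: among methylated windows with at least 60 reads in each library it was 57.8%, and among the 39 members that deep it was 23, or 59.0%. With this lower limit on depth the members' share was thus near the background, though depth above the limit was not matched. Members that entered through the control libraries are part of this share too.

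Replicates of a group lay far apart in these windows. The median gap between replicates was 10.5 points in iKO and 8.76 in control. Replicate 1 minus replicate 2 averaged 7.41 points in iKO and -6.82 in control. Over all windows tested its medians were 2.10 and -3.75. Mean levels there were 68.8% and 66.5% in iKO and 73.7% and 77.7% in control (replicates 1, 2). Ogt iKO replicate 2 was the lowest library in 38 of 52 members and control replicate 2 the highest in 36. The mean difference was -6.30 between the libraries numbered 1 and -20.5 between those numbered 2. When single libraries were left out, it ranged from -17.1 to -9.71.

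**Figure D2:**
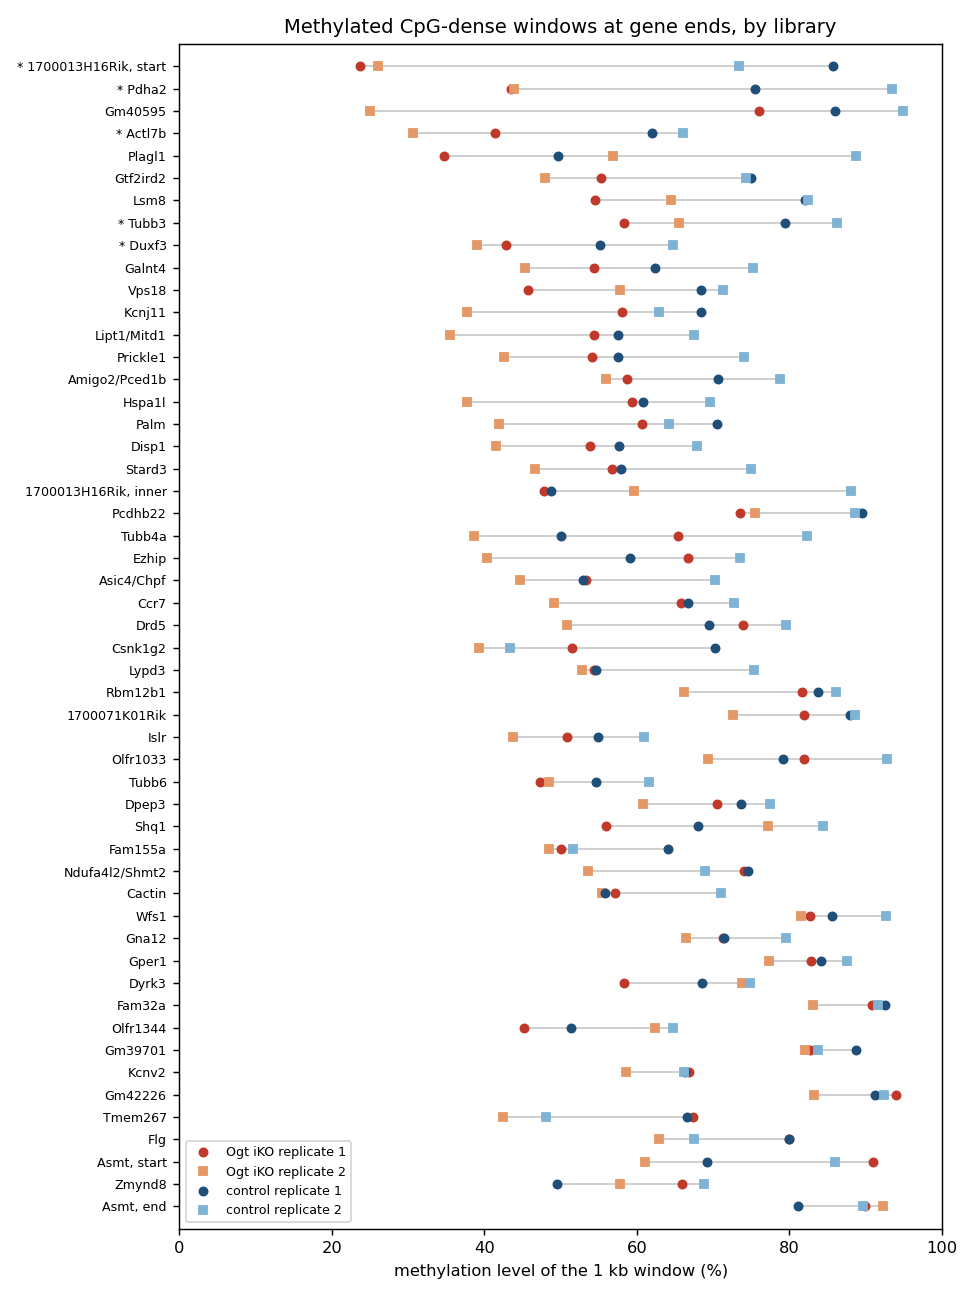
Methylation level (x axis, %) of each of the 52 windows (rows, named by gene, from the largest decrease at the top) in each library, with grey lines spanning the 4 values and stars marking windows called lower. Differences run from -54.7 points at 1700013H16Rik to 5.73 at the end of Asmt.

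A quasi-binomial logistic model, with its p adjusted over all 1741176 windows by the Benjamini-Hochberg method, called 5 members lower and 0 higher (0 at an unadjusted p under 0.05) at an adjusted p under 0.05 and at least 10 points. The background of such calls was 0.101% lower and 0.000287% higher over all windows, and 0.0697% lower among those at a mean level of 50% or higher. It was 1.18% lower among methylated windows with at least 60 reads in each library, where 4 of 39 members were called. In all, 24 members (46.2%) had an unadjusted p under 0.05 by this model, against 13.4% of all windows. Of these, 12 were among the 16 members with an iKO mean under 50% and 12 among the other 36. With at least 60 reads in each library it was 18 of 39 members, against 36.4% of all methylated windows that deep. The called windows lay at Pdha2, Actl7b, Tubb3, Duxf3 and 1700013H16Rik. All but Tubb3 had an iKO mean under 50% and reached the mean level of 50% through the control libraries, so their count is not independent of the choice of members. With the mean of each group held at 50% or higher, 1 of 36 members was called, Tubb3, against 0.0265% of all windows chosen that way. That share was not limited to windows as deep as the members.

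These calls depend on the model. edgeR's quasi-likelihood test called 0 members and 0.00115% of all windows, with 10 of 52 members and 11.6% of all windows at an unadjusted p under 0.05, and the lowest adjusted p of a member was 0.154. limma on logit levels called 0 members and 0 of all windows, with 6 members (11.5%) and 10.3% of all windows at an unadjusted p under 0.05. With any of the 4 libraries left out, the model called 0 members and 0 windows of the genome. The median dispersion was 3.58 in members and 1.11 over all windows, and moderation towards the genome brought the members' to 1.66. In 38 members the moderated value was below the window's own, as at Pdha2, Actl7b, Tubb3 and Duxf3, and in 14 it was above, as at 1700013H16Rik.

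Pdha2 encodes the testis form of the pyruvate dehydrogenase E1 alpha subunit and is an intronless copy of the X-linked gene. Its window (chr3:141211001-141212000, 46 CpGs, inside the gene) stood at 43.4% and 43.9% in iKO and 75.5% and 93.4% in control, on 61 to 122 reads. The iKO libraries were alike and far below both controls. The difference was -40.8 points (43.7% ± 0.308 against 84.5% ± 12.7, SD, n = 2 each; quasi-binomial model with limma moderation, adjusted p = 0.0127). Among its parts of 250 bases the gap was widest from 141211501 to 141211750. Levels there were 37.8% and 33.3% in iKO against 90.5% and 100% in control, on 15 to 45 reads. Each of the other called windows had a part in which the groups overlapped. At Tubb3 (123421251 to 123421500) iKO replicate 2 stood at 90.9%, on 11 reads, against 75.6% and 87.5% in control. In the last part of 1700013H16Rik control replicate 1 had 0 reads.

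Actl7b, an actin-like protein of the testis, is likewise an intronless gene, and its window (chr4:56740001-56741000, 44 CpGs) lay near both its start and its end. Levels were 41.4% and 30.6% in iKO and 62.0% and 66.0% in control, on 99 to 121 reads. Both iKO libraries lay below both controls by more than either group's own gap. The difference was -28.0 points (36.0% ± 7.66 against 64.0% ± 2.82, SD, n = 2 each; limma-moderated model, adjusted p = 0.0443).

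The window at the end of Tubb3 (chr8:123421001-123422000, 41 CpGs, inside the gene) stood at 58.4% and 65.5% in iKO and 79.4% and 86.2% in control, on 119 to 197 reads. Groups were apart, and the differences within number 1 and number 2 were nearly equal. It fell by 20.9 points in the model (limma-moderated, adjusted p = 0.0418), while the promoter of the gene was at 0 to 0.699% in the 4 libraries. At the related gene Tubb4a the groups overlapped, with 65.3% and 38.7% in iKO against 50.0% and 82.3% in control, so that iKO was the higher group in replicate 1 and the lower in replicate 2. At Tubb6 the values were 47.3% and 48.5% against 54.7% and 61.5%. Neither window was called.

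Duxf3 belongs to the Dux family of homeobox factors that activate genes at the 2-cell stage. Its window (chr10:58232001-58233000, 41 CpGs) had 941 to 1054 reads, 6.59 times the libraries' mean depth per CpG, and Dux genes lie in an array of near-identical copies, so the level is uncertain as that of 1 gene. Levels were 42.9% and 39% in iKO and 55.1% and 64.8% in control. Both iKO values were below both controls, with a difference of -19.0 points (limma-moderated model, adjusted p = 0.000549). edgeR gave an adjusted p of 0.634 for this window.

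The start window of the X-linked gene 1700013H16Rik (chrX:53757001-53758000, 47 CpGs) showed the widest difference of all members, -54.7 points. It stood at 23.7% and 26.0% in iKO and 85.7% and 73.3% in control, but on 59 and 50 reads against 14 and 30. Control replicate 1 had fewer reads here than any library in the other called windows, and the adjusted p was 0.0381 by the limma-moderated model. The adjacent window inside the gene, also a member, was at 47.8% and 59.6% in iKO and 48.7% and 88.1% in control, and the groups overlapped.

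Members near a start, 12 windows, had a median difference of -13.4 points, and 2 of them were called. The called windows, at Duxf3 and 1700013H16Rik, had iKO means of 40.9% and 24.9% and entered through the control libraries. Their count is therefore not independent of the choice of members. Besides Duxf3 and 1700013H16Rik, the members near a start lay at Gm39701, Gm42226, Drd5, Lsm8, Dpep3, Gm40595, Plagl1, Tmem267 and the start of Asmt. Lsm8, a subunit of the ring that binds U6 small nuclear RNA, had 54.5% and 64.5% in iKO against 82.1% and 82.5% in control, on 31 to 80 reads. Its groups were apart, with a difference of -22.7 that was not called. Gm40595, a predicted gene, had 76.0% and 25% against 86.0% and 94.9% on 20 to 43 reads, so that iKO replicate 2 alone accounts for most of its -40.0 points. Drd5, a dopamine receptor, overlapped at 73.9% and 50.8% against 69.5% and 79.5%. The mean of start members minus that of end members was -0.0120 and -3.09 points in iKO and 4.73 and 5.21 in control, a difference of -6.52 (exact permutation p = 0.333). Without both windows of 1700013H16Rik it was -3.05.

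Members near an end, 23 windows, had a median difference of -11.4 points, and 1 was called lower. Besides Tubb3 they lay at Lipt1/Mitd1, Dyrk3, Disp1, Vps18, Zmynd8, Flg, Wfs1, Gtf2ird2, Gper1, Gna12, Shq1, Lypd3, Fam32a, Islr, Palm, Csnk1g2, Cactin, Stard3, Prickle1, Hspa1l, Tubb4a and the end of Asmt. Gtf2ird2 had levels of 55.3% and 47.9% in iKO and 75.0% and 74.3% in control, a difference of -23.0 with an adjusted p of 0.073 by the limma-moderated model. Vps18, a subunit of the vesicle-tethering HOPS complex, had 45.7% and 57.8% against 68.4% and 71.3%. At Palm, a membrane-anchoring protein, the values were 60.7% and 42.0% against 70.5% and 64.2%. In each of these 3 windows both iKO libraries were below both controls, yet none passed the threshold.

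Other end windows differed less, or the other way. Zmynd8, a chromatin reader, was at 65.9% and 57.8% in iKO and 49.6% and 68.8% in control, a difference of 2.69. The end of Asmt, the last enzyme of melatonin synthesis, held 103 CpGs and stood at 89.9% and 92.3% in iKO against 81.2% and 89.6% in control, the 1 member with both iKO libraries above both controls. Shq1, a factor in box H/ACA particle assembly, held 76 CpGs and overlapped, with 56.0% and 77.3% against 68.0% and 84.4%. Among the 12 members with at least 100 reads in each library, the smallest differences were at Tmem267 (-2.44), Zmynd8, Kcnv2 (-3.53), Dyrk3 (-5.60) and Cactin (-7.14), and in each the groups overlapped. None of these values is firm, since leaving out 1 library gave -14.9 to 10 at Tmem267, -6.90 to 12.3 at Zmynd8, -7.67 to 0.599 at Kcnv2, -13.3 to 2.12 at Dyrk3 and -14.8 to 0.510 at Cactin. The Tmem267 window was also read at 2.14 times the libraries' mean depth per CpG.

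Windows near both a start and an end had a median difference of -22.7 points, with 2 of 4 called. The called windows, Pdha2 and Actl7b, had iKO means of 43.7% and 36.0% and entered through the control libraries. Neither this count nor the median is therefore independent of the choice of members. Beyond Pdha2 and Actl7b, Amigo2/Pced1b stood at 58.8% and 55.9% in iKO against 70.6% and 78.8% in control. Ezhip, an inhibitor of the Polycomb methyltransferase on the X chromosome, overlapped at 66.7% and 40.4% against 59.1% and 73.6%.

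The 13 windows at genes without a given strand had a median difference of -11.0 points and 0 were called by the limma-moderated model (6 at an unadjusted p under 0.05). They lay at Asic4/Chpf, Olfr1033, Rbm12b1, Olfr1344, Kcnj11, Fam155a, Galnt4, Ndufa4l2/Shmt2, 1700071K01Rik, Ccr7, Pcdhb22, Tubb6 and Kcnv2. Chpf and Shmt2 do have a strand, and these windows lay near their transcription ends. The strand was missing for Asic4 and Ndufa4l2. Pcdhb22, a clustered protocadherin of neuronal surfaces, had 73.5% and 75.5% in iKO against 89.5% and 88.6% in control. Its replicates were close and its groups apart, with a difference of -14.5 and an adjusted p of 0.194. Galnt4, which starts O-linked glycosylation in the Golgi, had 54.4% and 45.4% against 62.4% and 75.2%. Kcnj11, the pore of the KATP channel, had 58.1% and 37.8% against 68.4% and 62.9%.

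Imprinted and germline genes are known for methylated promoters. Of 75 imprinted genes, 50 had a CpG-dense window and 1 a member, Plagl1 (iKO mean 45.8%, entered through the control libraries). Of 161 germline and meiotic genes, 75 had such a window and 2 a member, Pdha2 and Hspa1l, an HSP70 protein of spermatids. Of these 2, Pdha2 alone was called, and both windows entered through the control libraries, with iKO means of 43.7% and 48.5%. Actl7b and Dpep3, described above as testis proteins, were members but not on this list, and Actl7b was called. The Hspa1l window lay near the gene's end, at 59.4% and 37.7% in iKO against 60.9% and 69.6% in control. The promoter of Hspa1l had a mean level of 1.69%. The Pdha2 window did not overlap that gene's promoter, which had too few reads for a level.

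Olfactory and vomeronasal receptors had 2 members, Olfr1033 and Olfr1344, from 6 genes with a CpG-dense window, and clustered protocadherins 1 of 30. Olfr1033 stood at 82.0% and 69.3% in iKO against 79.2% and 92.9% in control, and Olfr1344 at 45.2% and 62.3% against 51.4% and 64.7%, so both overlapped. Genes of the 2-cell stage had 1, Duxf3, of 4. No member was on the lists of zinc finger genes (228 with a CpG-dense window) or homeobox and other developmental regulators (188). The same held for cytosolic ribosomal protein genes (84), histone genes (71), DNA methylation and O-GlcNAc genes (21) and X-linked testis genes (10). These lists do not hold every such gene: Plagl1, a zinc finger factor, and Duxf3, a homeobox factor, were members but on other lists.

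Members were set against 2 kinds of methylated window to see whether their difference stood apart. CpG-dense windows away from gene ends (1008) had means of 73.9% ± 1.63 in iKO and 81.8% ± 2.67 in control (SD, n = 2 each), a difference of -7.95. Windows of 10 to 39 CpGs at gene ends (31731) had 66.8% ± 1.73 and 76.5% ± 2.67, a difference of -9.69. The members' extra difference was -5.46 points against the first, with both iKO libraries below both controls (exact permutation p = 0.333), and -3.73 against the second, where groups overlapped (exact permutation p = 0.667). With 2 libraries a group no difference can give a p below 0.333. Over windows with both group means at 50% or higher (36 members), the extra differences were -3.87 and -1.60, and with reads pooled over windows they were -3.23 and -1.50.

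Levels differed between these sets, and over all windows tested the mean difference was -11.5 points at levels of 50 to 60% and -5.88 from 80% upwards. With the windows away from gene ends weighted to the members' levels, the extra difference was -2.16 points. Among windows of 50 to 60%, the mean difference was -15.9 in the 23 members, -12.2 in the dense windows away from ends and -11.9 in the windows of fewer CpGs. From 60 to 70% it was -13.9 in 11 members, -13.7 in the dense windows away from ends and -11.6 in those of fewer CpGs. From 70 to 80% it was -13.8 in 9 members, -13.2 and -9.30, in the same order. From 80% upwards it was -6.13 in 9 members, -3.91 and -6.58. Single windows weighed on these means. Without the most negative member of its class the mean was -14.1 from 50 to 60% (without 1700013H16Rik), -11.2 from 60 to 70% (without Pdha2), -10.6 from 70 to 80% (without Gm40595) and -5.08 from 80% upwards (without Pcdhb22). Calls were made in 5 of 52 members, 4 of which entered through the control libraries. They were made in 2.78% of the dense windows away from ends and in 0.246% of the windows of fewer CpGs. The difference between these shares was not tested, and the sets differ in depth. Medians of the mean reads per library were 108, 95.8 and 47.8, in the same order.

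**Figure D3:**
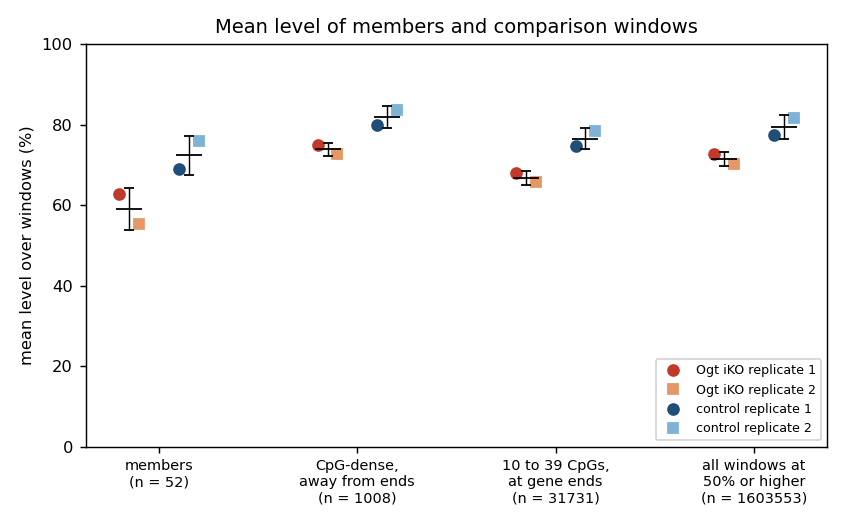
Mean methylation level (y axis, %) of the 52 members and of 3 comparison sets in each library, with the group mean and SD (n = 2) as a bar. The iKO minus control difference is -13.4 points in the members and -7.95, -9.69 and -8.05 in the other sets.

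The surroundings of the members were also lower in iKO. Methylated windows within 10 kb (698 in all) had a mean of 68.6% ± 1.57 in iKO and 77.4% ± 2.80 in control (SD, n = 2 each), a difference of -8.83. Each member minus its neighbours gave -7.05 and -12.2 points in iKO and -6.49 and -3.63 in control, a difference of -4.58 (exact permutation p = 0.333). With both group means at 50% or higher in members and neighbours alike, 36 members gave a difference of -3.04, and the groups overlapped (exact permutation p = 0.667). In 33 of 52 members the difference was more negative than the mean of the neighbours. CpG density dropped from a median of 44 in the member to 11 to 19.5 in the windows around it.

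**Figure D4:**
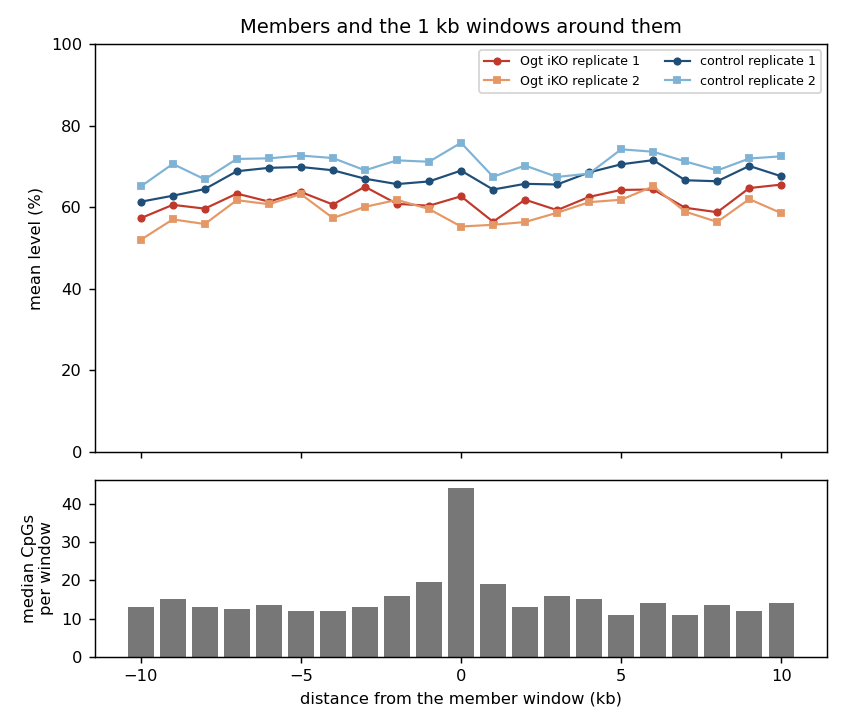
Upper panel, mean methylation level (y axis, %) per library at each distance from the member window (x axis, kb), and lower panel, median number of CpGs per window. The libraries spread most at the member itself, with 62.7% and 55.3% in iKO and 69.0% and 75.8% in control, where the median CpG number is 44.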

How the data were processed

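Genomic DNA of 4 libraries of sorted mouse embryonic stem cells was bisulfite-converted and sequenced. The authors used BSMAP and Picard with mm10, per the submitters' processing notes; versions and filters are not given in the sources used here. Per the file headers, the deposited tables give read counts for each CpG, namely methylated and total C or T reads, and an expected count, the total corrected for C/T variants with reads of the other strand. The tables list 0 adjacent positions, so the strands of a CpG were merged. Each table's file name states genotype and replicate and was matched to the library with that label.

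Counts were summed over 1 kb windows in Python 3.11.15 with NumPy 2.4.6, pandas 2.3.3 and PyArrow 21.0.0; figures used matplotlib 3.10.9. A level is methylated over total reads. Windows with at least 10 reads in each library were tested in R 4.3.3 with a quasi-binomial logistic model with group as the only term, a Pearson dispersion moderated by limma 3.58.1 with a floor of 1, an F test and Benjamini-Hochberg adjustment over all windows. The other tests were edgeR 4.0.16 (quasi-likelihood) and limma on the logit of levels, after adding 0.5 reads. Mean levels were compared by two-sided exact permutation over 6 arrangements. Depth was 3.36 to 4.05 reads per CpG. Without molecular identifiers, and with fragments spanning several CpGs, counts overstate the number of molecules.

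Gene positions and promoters came from RefSeq on GRCm38.p6. Of 54 genes, 41 had a strand there; exons were not used here. The members and gene lists were chosen with earlier results of these data known. Windows are named by rule: called windows with groups apart (10 largest decreases, 5 largest increases), up to 4 deepest members per list, the 3 with most CpGs, the 5 smallest differences among those with at least 100 reads, and 3 on each side of the 50% limit. Further windows are named with their values in view. The alternatives concern the tests, libraries, reads counted, window position and member thresholds.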

Additional observations from a re-analysis of the deposited data

How the results depend on the processing

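The lower mean level of the members kept its direction in 19 of 19 alternatives, from -17.1 to -9.22 points. Some of these could not have changed it. The replicate block leaves this mean as it was, and both iKO libraries lay below both controls, so leaving out single libraries cannot reverse it. The limit on window depth and that on each group's mean were chosen after seeing the data. Against the dense windows away from gene ends, the extra difference was -1.86 in the 13 members with at least 50 CpGs and -2.16 after weighting by level (chosen after seeing the data). Against windows of fewer CpGs it reversed to 0.468 in those 13 members; the cause was not tested. With single libraries left out these contrasts ranged from -8.01 to -2.91 and from -6.21 to -1.25. Start minus end members ranged from -8.06 to -4.98, and was -3.05 without 1700013H16Rik.

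The count of 5 members called lower was the least stable result. It stayed at 4 or 5 in 6 alternatives and moved further in 19. It was 0 with edgeR, limma on logit levels, CpGs read in every library (63 members) or windows shifted by 500 bp (62 members). At an adjusted p under 0.05 these fits held 20, 0, 4 and 2022 windows of the genome, against 1787 in the model as reported, so of them the shifted windows alone bear on stability. At 50 or more CpGs it was 0 of 13, which was fixed beforehand since each of the 5 called windows held fewer CpGs. It was 14 of 524 at 30 or more, where 1 was called higher. It was 1 with at least 20 reads and 2 after thinning, in fits that held 15 and 612 windows of the genome. It was 2 of 29 at a level of 60%, 1 of 18 at 70%, 2 of 13 with the gene end inside the window, and 1 of 36 with each group's mean at 50% or higher (chosen after seeing the data). Moderating the dispersion with a trend on reads, chosen after seeing the data, left 2, Pdha2 and Duxf3, and 585 windows of the genome. Leaving out single libraries gave 0 to 0, but such fits called 0 windows of the genome, so these say nothing about stability.

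The replicate block gave 0 called members and 0 called windows of the genome. It left the mean difference at -13.4, with -6.30 and -20.5 in the pairs numbered 1 and 2. The labels share numbers without saying that they pair samples, and the correlation of replicate deviations between groups was -0.00723 over all windows. The block with the numbers crossed, chosen after seeing the data, called 0. Depth limits single windows: members had 13 to 1054 reads per library, with a median of 107.5.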
